A study of Mus musculus with 8 samples.

Results

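Formins are the proteins that start unbranched actin filaments and stay on their growing ends. The 10 formin genes described here are Diaph1, Diaph2, Diaph3, Fmnl2, Fmnl3, Daam1, Daam2, Fhod1, Fhod3 and Inf2. They were taken by gene name from the deposited count table, which holds 56748 genes, and each name matched 1 row. The cells were primary cardiac fibroblasts of 1-day-old C57BL/6J mice with a wild-type genotype, kept after a plating step that discards cells slow to attach. One group was given transforming growth factor beta 1 (TGF-β1) at 10 ng/mL for 48 h, a cytokine that turns fibroblasts into contractile, matrix-producing myofibroblasts, and the other group was left untreated. Each group had 4 libraries, and the series design describes replicates as cells from different litters. All cells grew in medium with 10% serum, in which cultured fibroblasts are generally already partly activated.

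A formin works as a dimer of its formin homology 2 (FH2) domain, which holds the barbed end of an actin filament, while the neighbouring proline-rich FH1 domain brings in actin bound to profilin. Many formins are folded shut until a signalling protein at the membrane opens them. In fibroblasts formins feed stress fibres, filopodia and the contractile ring of dividing cells. By using up free actin monomers they also release the coactivators of serum response factor (SRF), a transcription factor of actin and contractile genes.

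Library totals ran from 14597778 to 17176898 counts in TGF-β1 libraries and from 14340740 to 16373798 in untreated ones. Genes of rRNA type took 1.05% to 2.47% of counts in TGF-β1 libraries. They took 0.0322% in untreated replicate 1 (exact binomial 95% interval 0.0312% to 0.0331%, counting error only) and 2.05% to 2.40% in the other untreated libraries. Levels are given as CPM, read counts scaled to library size with factors from the trimmed mean of M-values (TMM), and a gene was called when its adjusted p was under 0.05 (edgeR quasi-likelihood test, Benjamini-Hochberg over 13960 genes). Levels of different genes are compared as FPKM, the authors' values per kilobase of gene length. Over all genes tested, 17.6% were called higher and 18.5% lower. All 7 fibroblast markers were detected, of which 2 rose and 5 fell. Their log2 fold changes ran from −1.18 to 0.62, with a median of −0.39, and Col1a1 was among the 2 that rose. Col1a1, a collagen gene, averaged 10701 ± 595.9 CPM in TGF-β1 libraries and 6974 ± 521.4 CPM in untreated ones (SD, n = 4 each). Markers of mural, epicardial, macrophage and endothelial cells were also detected, at summed levels between 74.3 and 1259 CPM per library, against at least 12047 CPM for the fibroblast list. Single markers in these lists changed more than their sums. Of 5 mural markers tested, 3 rose and 1 fell, with log2 fold changes from −0.57 to 2.42. Among those that rose, Rgs5 was at 4.00 ± 0.611 CPM in TGF-β1 libraries and 0.745 ± 0.188 CPM in untreated ones. Cspg4 was at 51.2 ± 3.49 CPM in TGF-β1 libraries and 16.9 ± 2.30 CPM in untreated ones. With counts scaled by library totals, 2 mural markers rose and 1 fell. That scaling called 1301 of the 13960 genes tested higher and 3673 lower. Of 7 epicardial markers, 2 rose and 2 fell, with log2 fold changes from −2.13 to 0.61. The largest fall was in Krt19, at 3.55 ± 0.599 CPM in TGF-β1 libraries and 15.6 ± 0.347 CPM in untreated ones (SD, n = 4 each). When counts were scaled by library totals instead, 2 epicardial markers rose and 4 fell. Of 7 macrophage markers, 1 rose and 2 fell, with log2 fold changes from −1.89 to 0.68. The largest fall was in Mrc1, at 0.793 ± 0.261 CPM in TGF-β1 libraries and 2.95 ± 0.630 CPM in untreated ones. Without untreated replicate 4 no macrophage marker rose and 1 fell. Of 7 endothelial markers, 2 rose and 2 fell, or 1 and 2 with library totals. The part of these cell types in the formin results was not tested. Acta2, the smooth muscle actin that marks myofibroblasts, averaged 4352 ± 86.6 CPM in TGF-β1 libraries and 2684 ± 145.1 CPM in untreated libraries (SD, n = 4 each).

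Of the 10 formins, 5 fell with TGF-β1, 1 rose and 4 did not pass the test. Over all genes tested, 18.5% were called lower, 17.6% higher and 36% in either direction. Diaph3, Daam2, Fhod3, Fhod1 and Fmnl3 fell, and Inf2 rose. In these 6 genes the 4 TGF-β1 libraries did not overlap the 4 untreated ones, against 33.9% of all genes tested. Diaph3 and Daam2 were lower by more than 2-fold, as were 4.63% of all genes. The median log2 fold change of the 10 formins was −0.12, and that of all genes tested was 0.01. Without untreated replicate 1, 1 formin rose and 4 fell, where 2155 of 14149 genes tested rose and 2487 fell. Leaving out untreated replicate 2 instead gave the same formin counts (2166 genes rose and 2359 fell), as did leaving out TGF-β1 replicate 2 (2286 and 2464). The 4 formins with the highest FPKM (Fmnl3, Inf2, Daam1 and Diaph1) had log2 fold changes between −0.12 and 0.28, and each larger change was in a formin at a lower level.

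**Figure D1:**
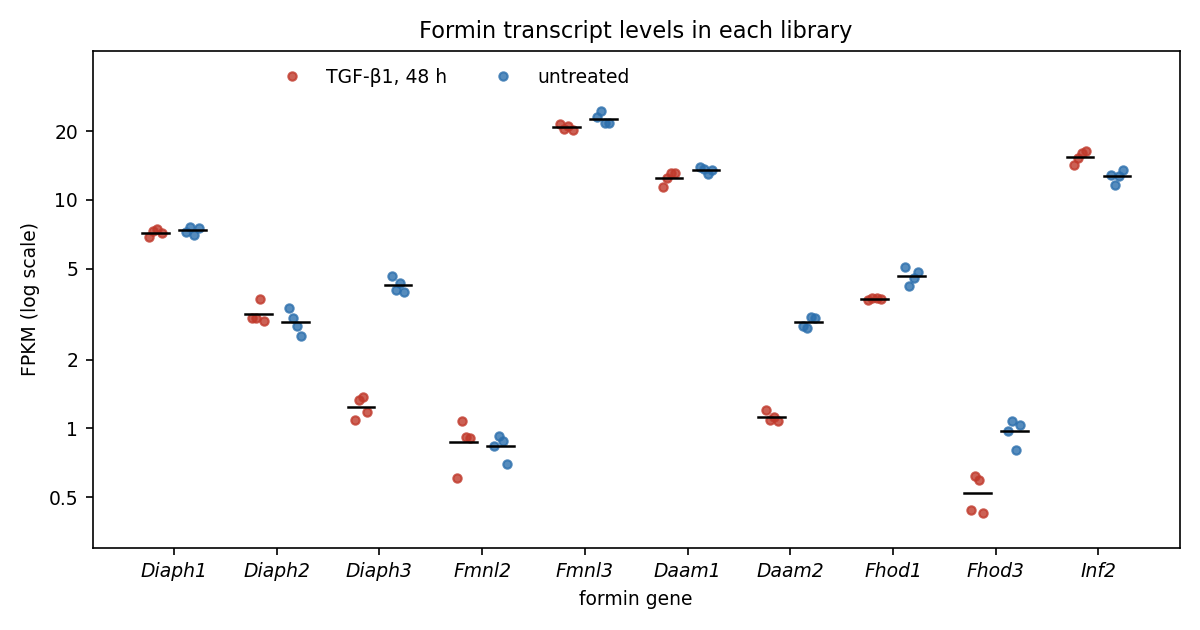
FPKM on a log axis for each of the 10 formins in each library, with the 4 TGF-β1 libraries left of the 4 untreated ones and a line at each mean. Diaph3, Daam2 and Fhod3 are separated most widely between groups, while Diaph1 lies at about 7 FPKM in both.

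Promoter sequences of Diaph3 and Daam2, the formins that fell most, and of Inf2, the one that rose, are printed to show the DNA at the starts of genes that moved in opposite directions. Each holds 250 bases before and 50 bases after an annotated start, in the direction of the gene, from RefSeq on build GRCm38.p6. Daam2 and Inf2 have 2 annotated starts each, and the one furthest upstream is used. Diaph3 lies at chr14:87141175-87141474 on the minus strand, Daam2 at chr17:49564288-49564587 on the minus strand and Inf2 at chr12:112588517-112588816 on the plus strand. Capitals mark matches to the motifs searched.
Diaph3: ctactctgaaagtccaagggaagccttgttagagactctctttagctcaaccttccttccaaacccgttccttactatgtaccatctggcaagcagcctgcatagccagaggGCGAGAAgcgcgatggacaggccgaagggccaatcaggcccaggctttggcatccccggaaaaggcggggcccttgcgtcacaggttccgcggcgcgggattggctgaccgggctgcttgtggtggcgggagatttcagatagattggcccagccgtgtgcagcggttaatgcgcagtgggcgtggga
Daam2: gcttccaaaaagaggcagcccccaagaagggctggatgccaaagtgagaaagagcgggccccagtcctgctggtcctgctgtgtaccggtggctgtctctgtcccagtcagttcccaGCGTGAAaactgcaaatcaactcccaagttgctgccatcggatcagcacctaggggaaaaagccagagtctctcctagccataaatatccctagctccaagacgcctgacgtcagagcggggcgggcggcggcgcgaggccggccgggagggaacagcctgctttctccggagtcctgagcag
Inf2: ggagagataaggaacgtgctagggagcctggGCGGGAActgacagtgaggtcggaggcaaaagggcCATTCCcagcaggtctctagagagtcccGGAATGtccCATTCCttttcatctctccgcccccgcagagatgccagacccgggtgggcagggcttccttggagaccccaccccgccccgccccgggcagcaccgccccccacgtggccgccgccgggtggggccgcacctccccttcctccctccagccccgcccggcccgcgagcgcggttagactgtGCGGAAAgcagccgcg

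Both strands were searched for the CArG box of SRF, CAGACA (bound by SMAD proteins), TGANTCA (AP-1), GGAATG (TEAD), TTNNCGC (E2F) and TTTGAA (a cell cycle element). Promoters on chromosome 18, where Diaph1 and Fhod3 lie, were left out, so 8 of the 10 formins were searched. For Daam1, Daam2 and Inf2, each with 2 annotated starts, only the start furthest upstream was searched. None of the 8 held a CArG box, which 1.63% of all 32851 promoters outside chromosome 18 held, or TTTGAA, which 17.9% held. TTNNCGC was found in 5 of the 8, against 20.2% of all promoters. These were the 3 printed, Fhod1, which fell, and Fmnl2, which was not called. Shares of all promoters count every annotated start, whereas each formin was searched at 1 start. In Diaph3 it starts 138 bases before the gene's start and in Daam2 133 bases before. The printed Inf2 promoter holds GGAATG at 3 places, starting 184, 156 and 147 bases before the start. Of all promoters 14.7% held this motif at least once and 0.131% held it 3 times or more. The 3 places were the highest count of any motif in the 8 promoters, and GGAATG in Inf2 is given for that reason. Inf2 also held TTNNCGC at 2 places, and 4.17% of all promoters held that motif at 2 or more. Daam1 held CAGACA (21% of all promoters), Fmnl3 and Diaph2 held TGANTCA (7.81%), and Fmnl3 also held GGAATG. No match overlapped another motif in these promoters. A match is a string of letters and does not show that a factor binds there.

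Diaph genes encode the Diaphanous formins, which build long unbranched filaments. Diaph3, whose protein (mDia2) builds actin in filopodia and in the cytokinetic ring, fell more than any other of the 10. It is on chromosome 14, 86892803 to 87378671, minus strand (GRCm39, as for all gene positions in this text). Its level was 6.14, 7.54, 7.81 and 6.68 CPM in TGF-β1 replicates 1 to 4, against 26.4, 22.7, 24.7 and 22.3 CPM in untreated replicates 1 to 4. Every TGF-β1 library lay far below every untreated one, and the spread within a group was small beside the gap. Diaph3 fell by 1.77 ± 0.10 on the log2 scale (SE), which leaves 0.293 of the untreated level (95% interval 0.255 to 0.338, edgeR adjusted p = 1.97e-12).

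Genes of cytokinesis and cell division fell in the same libraries, in 11 of 11 cases, against 18.5% of all genes tested. Their log2 fold changes ran from −3.08 to −2.06. The fall of Diaph3 was smaller than that of each of them. Their summed level was 59.7 to 71.3 CPM in TGF-β1 libraries and 376.6 to 421.3 CPM in untreated ones. The proliferation marker Mki67 averaged 7.86 ± 2.08 CPM in TGF-β1 libraries and 64.6 ± 2.16 CPM in untreated libraries (SD, n = 4 each). Anln, the anillin scaffold of the contractile ring, averaged 12.6 ± 0.585 CPM in TGF-β1 libraries and 68.5 ± 4.32 CPM in untreated ones, a log2 fold change of −2.44 ± 0.07 (SE). Top2a and Cdk1 had −2.88 ± 0.08 and −2.31 ± 0.07. The part of dividing cells in the fall of Diaph3 was not tested. In bulk RNA, fewer cells of one kind and less RNA per cell cannot be told apart.

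Diaph1 encodes mDia1, a formin of stress fibres, on chromosome 18, 37976654 to 38068529, minus strand. It had 44.4, 47.0, 47.9 and 46.1 CPM in TGF-β1 libraries, against 46.9, 49.1, 45.6 and 48.4 CPM in untreated ones. The groups overlapped almost completely. Its log2 fold change of −0.04 ± 0.05 was not called (SE, adjusted p = 0.646 by edgeR), and the 95% interval runs from 0.905 to 1.05 times the untreated level.

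Diaph2 encodes another Diaphanous formin, on chromosome X, 128650491 to 129366583, plus strand. Its level was 35.6, 35.8, 43.2 and 34.9 CPM in TGF-β1 libraries, against 39.5, 35.7, 33.02 and 29.6 CPM in untreated ones. TGF-β1 replicate 3 was the highest of the 8 and the other values overlapped between groups. Diaph2 was not called, at a log2 fold change of 0.12 ± 0.08 (SE, adjusted p = 0.28 by edgeR). The value was 0.04 without TGF-β1 replicate 3 and 0.19 without untreated replicate 1, and neither repeat gave a call.

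The balance within the Diaphanous genes shifted. The ratio of Diaph3 to Diaph1 FPKM was 0.157 to 0.186 in TGF-β1 libraries and 0.524 to 0.640 in untreated ones. This difference of −1.74 on the log2 scale had the smallest p that 4 against 4 libraries allow (exact two-sided permutation test over 70 assignments, p = 0.0286, adjusted over the 5 pairs p = 0.0476). The ratio of Diaph2 to Diaph1 averaged 0.442 ± 0.0368 in TGF-β1 libraries and 0.399 ± 0.0520 in untreated libraries (SD, n = 4 each, exact permutation p = 0.257, adjusted p = 0.321). The Diaph2 to Diaph1 difference was 0.16 on the log2 scale with all libraries and 0.23 without untreated replicate 1, with an adjusted p of 0.0357 in that repeat by the exact permutation test over 35 assignments.

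The FMNL formins act downstream of CDC42 and RAC1 in protrusions at the cell edge. Fmnl3, linked to filopodia and cell contacts, was the formin with the highest level, and it lies on chromosome 15, 99215106 to 99268363, minus strand. It had 109.9, 104.5, 107.7 and 103.2 CPM in TGF-β1 libraries, against 117.5, 124.5, 110.7 and 110.2 CPM in untreated ones. The groups did not overlap, but the highest TGF-β1 library and the lowest untreated one were almost level. Fmnl3 fell by 8.13% (log2 fold change −0.12 ± 0.04, SE, adjusted p = 0.0366 by edgeR). The call was lost without untreated replicate 1 or 2 (adjusted p = 0.0628 and 0.172) and without TGF-β1 replicate 2, 3 or 4 (0.0836, 0.0607 and 0.0952). It was also lost with no count filter (edgeR adjusted p = 0.0534) and when limma was run on FPKM values, with a pseudocount of 1 (0.0991) or 0.1 (0.122).

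Fmnl2, the close relative of Fmnl3 that elongates filaments in lamellipodia, was near the bottom of the 10 by level. It lies on chromosome 2, 52747872 to 53023816, plus strand. Its level was 3.46, 6.15, 5.28 and 5.19 CPM in TGF-β1 libraries, against 4.78, 5.31, 5.05 and 4.00 CPM in untreated ones. TGF-β1 replicates held both the highest and the lowest value. Fmnl2 was not called, at a log2 fold change of 0.07 ± 0.17 (SE, adjusted p = 0.782 by edgeR), and its 95% interval, 0.822 to 1.35 times the untreated level, was the widest of the 10. Its counts were 49 to 89 reads per library, and a change within this interval is not excluded.

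Fmnl2 stood at 0.0280 to 0.0525 of the FPKM of Fmnl3 in TGF-β1 libraries and at 0.0323 to 0.0407 in untreated ones. These ranges overlapped (difference 0.17 on the log2 scale, exact permutation p = 0.486, adjusted p = 0.486). Without TGF-β1 replicate 1, the lowest library, the difference was 0.35 and its adjusted p was 0.0476 (exact permutation test over 35 assignments).

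DAAM formins bind Dishevelled proteins of the Wnt pathway. Daam2, studied mostly in the nervous system and in kidney podocytes, had the next-largest fall after Diaph3, and it lies on chromosome 17, 49763050 to 49871371, minus strand. It had 12.0, 10.8, 11.2 and 10.7 CPM in TGF-β1 libraries, against 28.0, 27.2, 30.6 and 30.2 CPM in untreated ones. The libraries of a group lay close together and the groups were far apart. Daam2 fell by 1.38 ± 0.08 on the log2 scale (SE), to 0.384 of the untreated level (95% interval 0.343 to 0.431, edgeR adjusted p = 3.23e-12). In the GENCODE M39 annotation 2.63% of its exonic bases lie under exons of another gene, mostly Mocs1 on the opposite strand. The same share is 4.88% for Daam1, 6.24% for Fhod1 and 7.18% for Fhod3, again with genes on the opposite strand, and 0% for the other 6 formins. Reads of such stretches cannot be assigned to 1 gene if strand was not used in counting.

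Daam1, the widely used DAAM formin, lies on chromosome 12, 71877852 to 72039107, plus strand. Its level was 93.3, 102.6, 108.2 and 107.7 CPM in TGF-β1 libraries, against 115.0, 112.0, 107.4 and 110.8 CPM in untreated ones. TGF-β1 replicates 1 and 2 lay below every untreated library, and TGF-β1 replicates 3 and 4 reached into the untreated range. The log2 fold change was −0.11 ± 0.05 (SE, adjusted p = 0.0677 by edgeR), so Daam1 was not called. It passed the threshold with upper-quartile factors (−0.12, adjusted p = 0.0432), with library totals (−0.19, adjusted p = 0.00468) and without TGF-β1 replicate 3 or 4 (adjusted p = 0.0491 and 0.0435).

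The 2 DAAM genes therefore changed unequally. The ratio of Daam2 to Daam1 FPKM was 0.0821 to 0.106 in TGF-β1 libraries and 0.201 to 0.236 in untreated ones, a difference of −1.26 on the log2 scale. Its p was also the smallest possible (exact permutation p = 0.0286, adjusted p = 0.0476). Dvl1, Dvl2 and Dvl3, the Dishevelled genes whose proteins bind DAAM formins, had log2 fold changes of −0.06, −0.19 and −0.01, and Dvl2 fell (edgeR adjusted p = 0.0123).

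FHOD formins bundle and cap actin. Fhod1, which works in stress fibres, lies on chromosome 8, 106055795 to 106074585, minus strand. It had 17.4, 17.6, 17.7 and 17.6 CPM in TGF-β1 libraries, against 24.0, 19.96, 21.6 and 22.8 CPM in untreated ones. The TGF-β1 libraries were nearly equal, and each was below all untreated ones. Fhod1 fell by 20.6% (log2 fold change −0.33 ± 0.08, SE, adjusted p = 0.00156 by edgeR).

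Fhod3, the formin that cardiomyocytes need to build sarcomeres, was the lowest of the 10 in TGF-β1 libraries. It lies on chromosome 18, 24841680 to 25266558, plus strand. Its level was 3.24, 4.56, 4.36 and 3.16 CPM in TGF-β1 libraries, against 7.17, 7.96, 5.93 and 7.63 CPM in untreated ones. No TGF-β1 library reached the untreated range. Fhod3 fell by 0.91 ± 0.16 on the log2 scale (SE), to 0.532 of the untreated level (95% interval 0.424 to 0.669, edgeR adjusted p = 8.16e-05). On the log2(FPKM + 1) scale, which understates changes of low genes, limma gave −0.38.

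Cardiomyocyte markers moved in the same direction as Fhod3. Of 13 such markers, 12 fell, against 18.5% of all genes tested. None of the 13 rose, and none was at 0 in either group. Their summed level was 442.5 to 523.0 CPM in TGF-β1 libraries and 817.1 to 890.1 CPM in untreated ones. Tnnt2, cardiac troponin T, averaged 297.5 ± 29.2 CPM in TGF-β1 libraries and 518.4 ± 22.9 CPM in untreated libraries (SD, n = 4 each), a log2 fold change of −0.80 ± 0.05 (SE). The part of residual cardiomyocytes in the fall of Fhod3 was not tested. The ratio of Fhod3 to Fhod1 FPKM was 0.116 to 0.167 in TGF-β1 libraries and 0.177 to 0.257 in untreated ones, a difference of −0.59 on the log2 scale (exact permutation p = 0.0286, adjusted p = 0.0476).

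When each library was left out in turn, Diaph3 to Diaph1 differed by −1.78 to −1.69 and Daam2 to Daam1 by −1.34 to −1.22 on the log2 scale. Both kept the smallest p that 35 assignments allow in 8 of 8 repeats (exact permutation p = 0.0286). Their p adjusted over the 5 pairs was 0.0714 without TGF-β1 replicate 4 and without untreated replicate 2 or 4. No other pair was at that smallest p there, so these values are set by the design. The adjusted p of 0.0476 with all libraries (exact permutation test) is likewise set by how many pairs were at their smallest p. Fhod3 to Fhod1 differed by −0.68 to −0.49 and was at the smallest p in 4 of 8 repeats. Its p was 0.0571 without TGF-β1 replicate 1 or 4 and without untreated replicate 2 or 4 (exact permutation test, adjusted p = 0.0714 without TGF-β1 replicate 1 and 0.0952 in the other repeats).

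**Figure D2:**
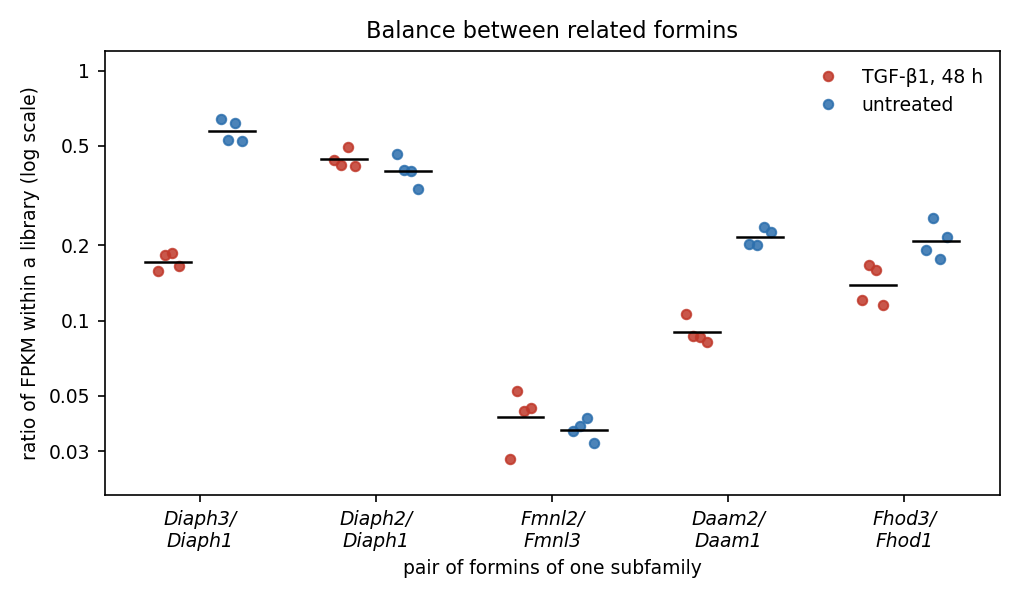
Ratio of FPKM within a library, on a log axis, for 5 pairs of related formins, with the 4 TGF-β1 libraries left of the 4 untreated ones and a line at each geometric mean. The groups are separate for Diaph3/Diaph1, Daam2/Daam1 and Fhod3/Fhod1 and overlap for the other pairs.

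Inf2 was the one formin of the 10 that rose. Its protein both builds and severs filaments, acts at the endoplasmic reticulum and mitochondria, and is mutated in inherited kidney and nerve disease in humans. The gene lies on chromosome 12, 112555218 to 112581991, plus strand. It had 70.5, 75.2, 79.2 and 81.1 CPM in TGF-β1 libraries, against 63.6, 57.4, 63.3 and 67.0 CPM in untreated ones. The TGF-β1 libraries were all higher, with a narrow gap between the groups. The rise was 1.22-fold (95% interval 1.13 to 1.32, log2 fold change 0.28 ± 0.05, SE, adjusted p = 0.000243 by edgeR).

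**Figure D3:**
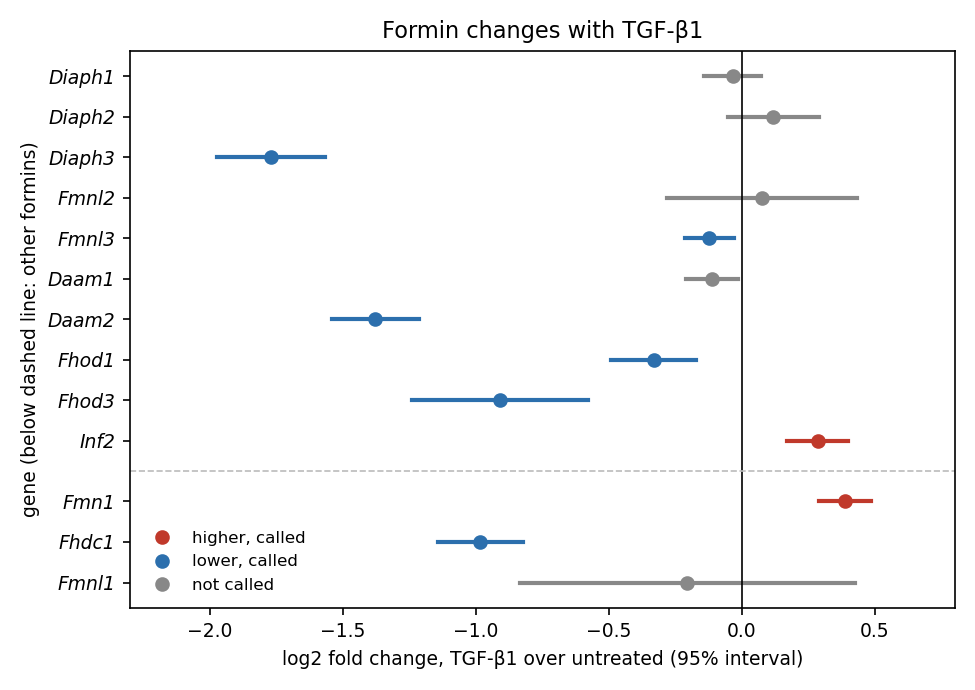
Log2 fold change of TGF-β1 over untreated with its 95% interval for the 10 formins (above the dashed line) and for the 3 other formins that could be tested (below it), coloured by the edgeR call after adjustment. Diaph3 lies lowest at −1.77 and Daam2 next at −1.38. The interval of Daam1 excludes 0 although its adjusted p missed the threshold.

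By FPKM, the order in TGF-β1 libraries was Fmnl3 (20.8), Inf2 (15.4), Daam1 (12.5), Diaph1 (7.19), Fhod1 (3.70), Diaph2 (3.18), Diaph3 (1.24), Daam2 (1.12), Fmnl2 (0.876) and Fhod3 (0.520). From Fmnl3 to Fhod1, no neighbours in this order overlapped between libraries. Fhod1 and Diaph2 overlapped, as did each pair of neighbours from Diaph3 down to Fhod3. In untreated libraries Fmnl3 (22.7) again led, followed by Daam1 (13.5), Inf2 (12.7), Diaph1 (7.37), Fhod1 (4.66), Diaph3 (4.24), Diaph2 (2.93), Daam2 (2.92), Fhod3 (0.973) and Fmnl2 (0.835). There Daam1 and Inf2 overlapped, as did Fhod1 and Diaph3, Diaph2 and Daam2, and Fhod3 and Fmnl2. Inf2 thus stood above Daam1 in every TGF-β1 library, and the 2 genes overlapped in untreated ones.

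The summed FPKM of the 10 formins was 64.1, 66.4, 69.1 and 67.0 in TGF-β1 libraries, against 74.8, 73.2, 70.9 and 72.4 in untreated ones. The sum was lower in each TGF-β1 library than in each untreated one. Fmnl3, Inf2, Daam1 and Diaph1 together made up 83.5% to 84.7% of it in TGF-β1 libraries and 76.3% to 78.1% in untreated ones. The share of Inf2 was 23.2% ± 0.902 in TGF-β1 libraries and 17.4% ± 1.25 in untreated ones, and that of Diaph3 was 1.86% ± 0.162 in TGF-β1 libraries and 5.83% ± 0.406 in untreated ones (SD, n = 4 each). These shares rest on the authors' gene lengths, which do not take account of which isoform is made.

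The mouse has 5 more formin genes in the table, and 3 of them could be tested. Fmn1, a formin of adherens junctions, rose to 96.8 ± 5.46 CPM in TGF-β1 libraries, against 74.0 ± 2.20 CPM in untreated libraries (SD, n = 4 each, log2 fold change 0.39 ± 0.05, SE, adjusted p = 6.4e-07 by edgeR). Fhdc1, whose protein also binds microtubules, fell to 13.7 ± 0.676 CPM in TGF-β1 libraries, against 27.0 ± 1.54 CPM in untreated ones (log2 fold change −0.98 ± 0.08, SE, adjusted p = 6.33e-10 by edgeR). Exons of another gene on the opposite strand cover 10.1% of its exonic bases. Fmnl1, a formin of blood cells, had 0.760 to 2.60 CPM in TGF-β1 libraries and 1.46 to 1.95 CPM in untreated ones and was not called (edgeR adjusted p = 0.645). Grid2ip, known from cerebellar Purkinje cells, had 0 reads in each TGF-β1 library and 5, 1, 4 and 4 reads in untreated ones. Fmn2, known from oocytes, had 0, 4, 0 and 0 reads in TGF-β1 libraries and 1, 1, 0 and 0 in untreated ones.

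Among 15 regulators and partners of formins 3 rose and 4 fell, with a median of −0.05. With library totals, 3 of the 15 rose and 7 fell. Beside this list and those below, 17.6% of all genes tested rose and 18.5% fell with TMM factors. With library totals, 1301 of the 13960 genes tested rose and 3673 fell. Baiap2, the membrane-bending CDC42 partner IRSp53, rose to 30.1 ± 2.85 CPM in TGF-β1 libraries, against 13.5 ± 1.03 CPM in untreated libraries (SD, n = 4 each). Its log2 fold change of 1.15 ± 0.08 (SE, adjusted p = 1.96e-10 by edgeR) was the largest rise in the list. Iqgap1, a scaffold that binds mDia1, rose by 0.39 ± 0.04 and Srgap1 by 0.53 ± 0.09.

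On the side of actin supply, 5 of 11 genes for monomer-binding proteins rose and 1 fell (median 0.06), or 3 and 2 with library totals. Pfn1, the main profilin that formins draw on, had a log2 fold change of 0.01 ± 0.04 (SE, adjusted p = 0.875 by edgeR). Dstn and Cfl2, of the actin depolymerising factor and cofilin family, rose by 0.35 ± 0.04 and 0.28 ± 0.04, and the thymosin gene Tmsb10 rose by 0.32 ± 0.06. Of 13 genes of the Arp2/3 complex, which nucleates branched actin, and its activators 3 rose and 2 fell, with a median of 0.00. Over all genes tested, 17.6% rose and 18.5% fell. With library totals, 1 of the 13 was higher and 4 were lower, where 1301 of all genes tested were higher and 3673 lower. Actr3 rose by 0.21 ± 0.04 and Arpc5 by 0.16 ± 0.04, and Arpc1b fell by 0.20 ± 0.04. The Arpc1b count is uncertain, since 17.4% of its exonic bases lie under exons of other genes, mostly Pdap1 on the opposite strand. With library totals Arpc5 was not called (edgeR adjusted p = 0.142). Without untreated replicate 3, 2 genes of this list rose and 1 fell.

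Among 7 other nucleators and Ena/VASP elongators, 3 rose and 3 fell, with a median of 0.08, or 2 and 3 with library totals. The leiomodin gene Lmod1 rose by 0.40 ± 0.08, while the elongator genes Vasp and Evl fell by 0.23 ± 0.04 and 0.41 ± 0.08. The Vasp count is uncertain, since 30.5% of its exonic bases lie under exons of other genes, mostly Opa3 on the opposite strand. Of 12 genes of actins and the MRTF-SRF axis 8 rose and 2 fell, with a median of 0.22, or 6 and 2 with library totals. Acta2 (0.70 ± 0.04), Tpm1 (0.67 ± 0.03) and Myl9 (0.48 ± 0.04) rose with the smallest p. Srf itself had −0.03 ± 0.05 (edgeR adjusted p = 0.698), and its coactivator genes Mrtfa and Mrtfb had −0.05 ± 0.07 and −0.22 ± 0.07, of which Mrtfb fell (edgeR adjusted p = 0.0127).

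**Figure D4:**
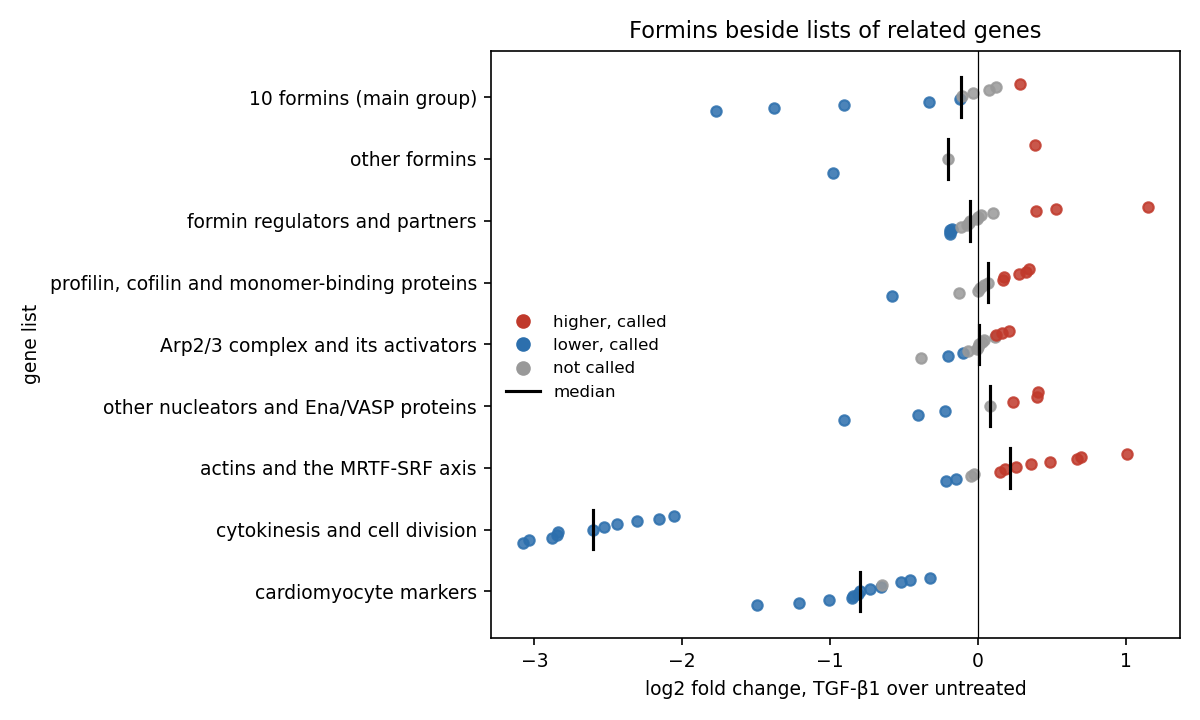
Log2 fold change of TGF-β1 over untreated for each tested gene of the formins and of 8 other lists, coloured by the edgeR call, with a black line at each median. The 11 cell division genes lie from −3.08 to −2.06, below Diaph3, the lowest formin.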

How the data were processed

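RNA of 8 cultures, 4 with TGF-β1 and 4 untreated, was sequenced after poly(A) selection and random-primed library preparation, per the labels' protocols. The deposited table holds raw read counts per gene. Aligner and counter in the submitters' processing notes are HISAT2 and featureCounts of Subread, after CASAVA, with no version. No source used here states whether counting used strand. A second deposited table holds FPKM by the authors, in which a library-wide factor multiplies each count divided by gene length. The notes name GRCm38 and the series design names mm39. The table's positions meet those of the same coding gene in 99.9% of cases with GRCm39 (GENCODE M39) and in 16.1% with GRCm38.p6, so they are read as GRCm39. Promoter positions are those of RefSeq on GRCm38.p6 and are not mixed with them.

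Libraries were grouped by their labels. Genes were kept by filterByExpr of edgeR (minimum count 10, minimum total 15), which left 13960 of 56748 genes and all 10 formins. TMM factors were used for scaling, and edgeR 4.0.16 gave the test (quasi-likelihood, group as the only term, two-sided, Benjamini-Hochberg over all genes tested, R 4.3.3). The SE is the size of the log2 fold change over the square root of F, and the 95% interval uses its moderated degrees of freedom. The test was run first on simulated data. There it recovered 52% of 1.25-fold, 78% of 1.5-fold, 82% of 2-fold and 98% of 4-fold changes. Ratios within libraries were compared by exact permutation of 4 against 4 libraries. The median squared difference between replicates of a group was 2.07 to 3.17 times that of sampling noise, so none was treated as a duplicate. Alternatives were other scalings and filters, DESeq2 1.42.0, limma 3.58.1 on log2(FPKM + 1) and log2(FPKM + 0.1), a block for replicate number, and leaving out each library. A repeat without rRNA genes and Lars2 was chosen after seeing the data. The members, pairs, motifs and gene lists were chosen with earlier results of these data known. From each list the text names up to 3 called genes with the smallest p, plus Acta2, Mki67 and Tnnt2. Other genes named from a list (Pfn1, Srf, Mrtfa, Mrtfb, the Dvl genes, Col1a1, Rgs5, Cspg4, Krt19 and Mrc1) were added after their values were seen. The result of 1 list is not reported here.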

Additional observations from a re-analysis of the deposited data

Results flagged for a closer look

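In 82 groups of 4 libraries checked, covering the formins, the other named genes and the 5 ratios, 1 library stood apart from the other 3 of its group. It was TGF-β1 replicate 3 for Diaph2, at 43.2 CPM, and its gap to the next library was 0.89 of the range of the group. Chance alone flags about 1 in 20 such groups. Diaph2 was not called with or without this library.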

How the results depend on the processing

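The calls of Diaph3, Daam2, Fhod1, Fhod3 and Inf2 held, in the same direction, under all 18 alternatives run, and Diaph1, Diaph2 and Fmnl2 were called in none of them. Log2 fold changes over these alternatives ran from −1.85 to −1.22 for Diaph3, −1.46 to −0.88 for Daam2, −0.41 to −0.26 for Fhod1 and 0.20 to 0.32 for Inf2, and that of Fhod3 was −0.38 at its smallest. The smallest sizes of Diaph3, Daam2 and Fhod3 came from limma on log2(FPKM + 1). Fmnl3 was called in 10 of the 18 and Daam1 in 4. The number of formins called was 5 to 7. With library totals, the split of all calls was 1301 higher and 3673 lower, against 2451 and 2579 with TMM factors, and 1 formin was higher and 6 lower. Without untreated replicate 1, whose rRNA share was low, 1 formin rose and 4 fell. The same counts came without untreated replicate 2 or TGF-β1 replicate 2, so they are not particular to that library.

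No pairing by replicate number was seen in the counts: deviations of same-numbered libraries from their group means correlated at −0.03 to 0.03. Libraries of different numbers reached 0.09. These correlations cannot show whether same-numbered cultures came from the same litter. With the replicate number as a block 6 formins were called, 1 higher and 5 lower, and 4971 genes in all. An exact sign-flip permutation test of the ratios within replicate numbers cannot go below p = 0.125. Fmnl2 at 49 to 89 reads and Fhod3 at 46 to 128 reads per library are the formins where depth limits precision most.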
